A study of Canis lupus familiaris with 33 samples.

Results

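The genes described here encode enzymes that cut the extracellular matrix, an inhibitor of those enzymes, and the surface system that turns plasminogen into plasmin: MMP2, MMP9, MMP13, MMP14, MMP19, TIMP3, PLAU and PLAUR. They were taken by gene symbol from the deposited table of 25096 genes. A list of 10 genes was sought, 8 of which were found and all 8 of which passed the filter on low values, so 24471 genes were tested with them in the table. TIMP3 was written in lower case there and was matched without regard to case. MMP11 and TIMP2 were not analysed here.

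Matrix metalloproteinases are zinc enzymes that are secreted or held at the cell membrane as inactive precursors and cleave collagens, laminins and other matrix proteins once activated. Tissue inhibitors of metalloproteinases bind the active enzymes. Urokinase, encoded by PLAU, binds its receptor PLAUR at the cell surface and converts plasminogen to plasmin, which cleaves fibrin and matrix proteins and can activate some metalloproteinase precursors. In invasive urothelial carcinoma (iUC), a cancer of the bladder lining, these enzymes are studied because tumor cells and the surrounding stroma use them where matrix is broken down.

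RNA was sequenced from 29 naturally occurring canine iUC tumors, collected by cystoscopy from pet dogs before treatment, and from 4 samples of mucosa dissected from normal bladder; the labels give no breed, age or sex. Each deposited value is a TMM-normalized expression level on the log2 scale from which the gene's median across the 33 samples was subtracted, so 0 is the middle sample and levels cannot be compared between genes. The normals are labelled as urothelial cells, but the mean of 5 smooth muscle markers lay at 4.74 to 6.75 in them and at -1.23 to 3.58 in the tumors, and that of 8 urothelial markers at -1.51 to -0.18 against -1.31 to 0.96. The mean of 9 fibroblast markers was 1.81 to 2.52 in the normals, above 28 of 29 tumors, while the means of 5 cycling markers were higher in all 29 tumors than in any normal. Between 755 and 1019 genes sat at a lowest value shared with other samples in a normal, against 3699 to 8175 in a tumor. In bulk tissue, fewer cells of a type and less RNA per cell cannot be told apart.

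Of the 8 genes, MMP9 and PLAUR were higher in the tumors, TIMP3 was lower, and the other 5 did not pass both thresholds, which asked for 2-fold or more and an adjusted p no higher than 0.05 (limma, Benjamini-Hochberg adjustment over all genes tested). In the whole comparison 10.7% of genes were called higher and 45.8% lower, so calls were common. The median change of the 8 genes was -0.21 on the log2 scale, beside -0.84 over all genes tested. Over genes whose median lay above the lowest value it was -0.0093. None of the 8 sat at a shared lowest value in any sample.

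MMP9 encodes gelatinase B, which cleaves denatured collagen and basement membrane collagen. Its log2 values in normals A to D were -2.91, -2.33, -3.26 and -3.15, and in the tumors they ran from -4.01 through a median of 0.61 to 3.80. All 4 normals were low, 24 tumors lay above every normal, 2 lay among them and 3 lay below. The tumors therefore overlapped the normals at the low end, where tumor 1 held the lowest value and tumors 19 and 20 the next, and tumors CH and 9 were the highest. The mean difference was 2.98 ± 1.00 on the log2 scale (SE), 7.89-fold, with a limma adjusted p of 0.00860. The span from lowest to highest tumor was 225-fold, and 98.1% of tested genes varied less among the tumors (by SD).

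MMP2, gelatinase A, is the other enzyme of that substrate class. The normals had values of 0.54, 0.95, 0.60 and 1.10, and the tumors ran from -2.78 through -0.10 to 2.60. Most tumors, 22 of 29, lay below every normal, but 4 lay above them all, with Po, Za and 8_734_223 highest and tumors 10, 2_699898 and 9 lowest. The difference of -0.94 ± 0.64 (SE, log2) did not pass (limma adjusted p = 0.188).

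MMP13, collagenase 3, cleaves fibrillar collagens. In the normals its values were -0.84, -1.22, -1.23 and -0.53, and the tumors ran from -1.95 through 0.06 to 3.74. Although 21 tumors lay above all normals, 3 lay below them and 5 among them. The top was held by 3 tumors, 7, 2 and Ab, at 3.74, 3.37 and 3.12. The mean difference was 1.37 ± 0.71 (SE, log2), with a limma adjusted p of 0.0818, which missed the threshold.

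MMP14 is a membrane-anchored metalloproteinase that cleaves collagen at the cell surface and activates the MMP2 precursor. Its normals lay close together at 0.64, 0.90, 0.99 and 0.82, while the tumors ran from -1.75 through -0.18 to 1.69. Of the tumors, 24 lay below every normal and tumors 2 and 20 lay above them all. The difference of -0.94 ± 0.39 (SE, log2), 1.92-fold, had a limma adjusted p of 0.0337 but fell short of 2-fold. Without a fold threshold 48.1% of all genes were lower by that adjusted p. That adjusted p was 0.0515 with a weight per group, and 0.0518, 0.0743, 0.0833 and 0.0695 with normal A, B, C or D left out. In a second deposited table, normalized by DESeq, it was -1.24 (adjusted p = 0.00621), past both thresholds, where 49.1% of genes were called lower. The median change over the genes of both tables moved by -0.30 between them.

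MMP19 encodes a secreted metalloproteinase that cleaves components of basement membranes. Its values in the normals were 0.55, 0.46, 0.25 and 0.39, and in the tumors they ran from -1.76 through -0.16 to 1.93. Tumors 8_734_223 and Za, at 1.93 and 1.89, stood above the next tumor at 0.78, and 21 tumors lay below all normals. The difference of -0.70 ± 0.46 (SE, log2) did not pass (limma adjusted p = 0.176).

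TIMP3, the tissue inhibitor that stays bound to the matrix and also inhibits the shedding protease ADAM17, had the most complete separation of the 8 genes. Normals A to D had values of 2.31, 2.61, 2.34 and 3.04, and the tumors ran from -2.55 through -0.36 to 4.16. All but 1 of 29 tumors lay below every normal. The exception, tumor Ja at 4.16, lay above them all, and the next tumor, Po, was at 1.39. The mean fell by 2.76 ± 0.70 on the log2 scale (SE), 6.75-fold, with a limma adjusted p of 0.000808. The smooth muscle and fibroblast marker means were lower in the same comparison, in 29 and 28 of 29 tumors, and their part in the TIMP3 difference was not tested.

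PLAU, which encodes the protease urokinase, showed no difference past its spread. Its normals were at -0.34, 0.26, -0.25 and -0.08, and the tumors ran from -1.57 through 0.01 to 4.26, with 11 above, 10 below and 8 within the normals. Tumor 7 at 4.26 stood apart from tumor 3 at 2.13 and tumor Ab at 1.56. The difference was 0.28 ± 0.59 (SE, log2; limma adjusted p = 0.683), and it was -0.02 in the DESeq-normalized table.

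PLAUR, the membrane-anchored urokinase receptor, was lower in the normals than in nearly all tumors. Its values were -2.13, -1.29, -1.84 and -1.24 in normals A to D, and -1.47 to 2.21 in the tumors, with a median of 0.31. No tumor lay below all normals, 3 lay within their range and 26 lay above it. The low tumors were 3, 20 and 10, and the highest were 12, 7 and Da6. PLAUR rose by 1.81 ± 0.52 (SE, log2), 3.49-fold, with a limma adjusted p of 0.00254.

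**Figure D1:**
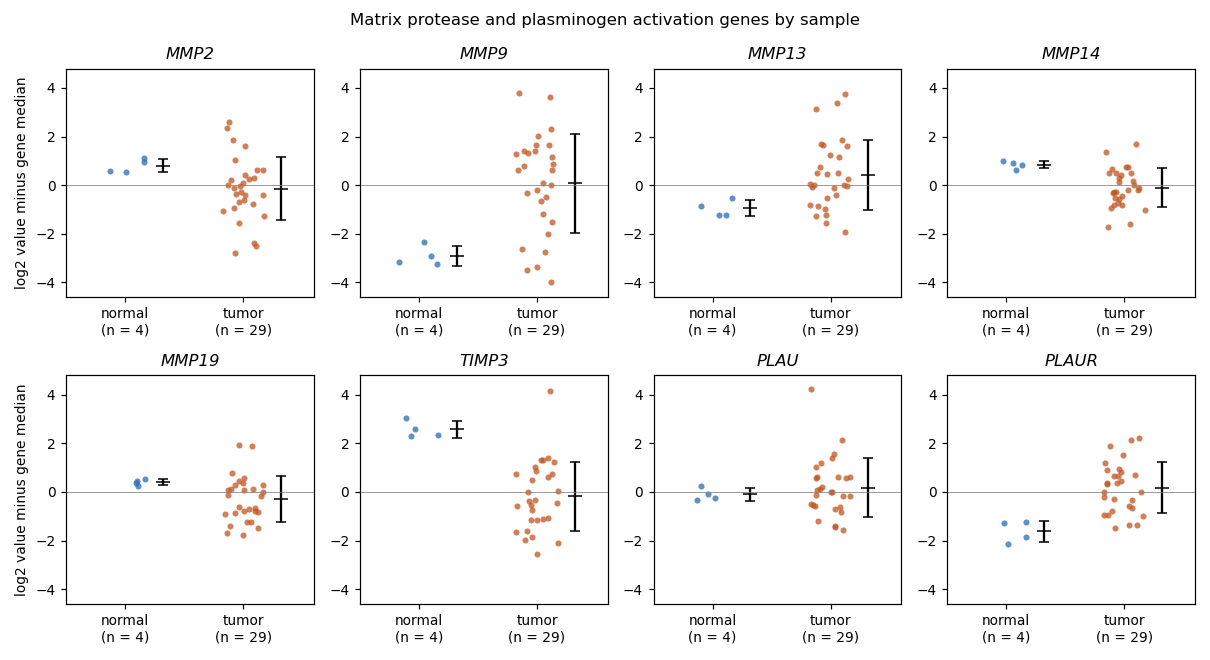
Log2 value minus the gene median (vertical axis) of the 8 genes in 4 normals and 29 tumors. Each point is a sample, and the black bar is the mean ± SD. The normals of MMP9 and PLAUR sit near the bottom of the tumor range, those of TIMP3 sit above all tumors but 1, and the tumors of MMP2 and PLAU surround the normals.

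The balance of activator and receptor within a sample was compared as the PLAU value minus the PLAUR value, a quantity that a scaling factor common to a sample cannot move. It was 1.16 to 1.79 in the normals (mean 1.52 ± 0.26, SD, n = 4) and -2.12 to 3.60 in the tumors (median 0, mean -0.0039 ± 1.19, SD, n = 29). In 26 of 29 tumors it lay below every normal. The means differed by -1.53 (two-sided exact permutation test over 40920 splits, p = 0.0185). By construction this is the PLAU change of 0.28 less the PLAUR change of 1.81, so its size is no separate result. Without normal A the difference was -1.44 and the exact p was 0.0522, and with B, C or D left out p was 0.0409, 0.0425 and 0.0274.

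The other genes of these pathways were called lower about as often as all genes tested, and higher more often. Of 50 tested genes in 5 lists of other proteases, inhibitors and plasminogen system genes, 11 were higher and 24 lower in the tumors. Over all genes tested, 10.7% were higher and 45.8% lower. The median log2 change of the 50 genes was -1.05, beside -0.84 over all genes tested. Over genes whose median lay above the lowest value it was -0.0093. These lists were chosen with earlier results of the data known, and no set test was run.

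Among 12 other matrix metalloproteinases, 1 was higher and 5 were lower. MMP15, a membrane-anchored relative of MMP14, rose by 2.60 ± 0.38 (SE, log2). MMP27 fell by 4.97 ± 0.73 and MMP20, the enamel metalloproteinase, fell by 4.87 ± 0.29, but these were at the lowest value in 14 and 24 of 29 tumors, so the sizes were set by that floor. Both tested inhibitors other than TIMP3 were lower in the tumors. TIMP4, a further tissue inhibitor, fell by 2.67 ± 0.68, and RECK, a membrane-anchored inhibitor, fell by 1.92 ± 0.25. TIMP1 was not analysed here.

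Of 8 other plasminogen system genes, 5 were lower and none was higher. CPB2, which encodes a carboxypeptidase that slows fibrinolysis, fell by 6.03 ± 0.42, and PLG, which encodes plasminogen itself, fell by 5.78 ± 0.67 (SE, log2). Both are known as liver products, and they sat at the lowest value in 17 and 15 tumors, so that floor limits the sizes of these falls. PLAT was not analysed here.

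The ADAM and ADAMTS proteases, which shed surface proteins and cut proteoglycans, had 4 of 18 higher and 11 lower. ADAM9 rose by 1.73 ± 0.28 and ADAM15 by 1.66 ± 0.45, both membrane-anchored, while the secreted ADAMTS8 fell by 7.20 ± 0.97 and ADAMTS19 fell by 4.51 ± 1.03 (SE, log2). ADAMTS8 was at the lowest value in 7 tumors, which limits the size of its change. Cathepsins and membrane serine proteases had the opposite balance, with 6 of 10 higher and 1 lower. CTSZ, a lysosomal cathepsin, rose by 1.89 ± 0.26, TMPRSS4, a membrane serine protease, rose by 1.85 ± 0.26, and CTSF fell by 1.10 ± 0.25. CTSL was left out because 2 rows carry that symbol. With DESeq normalization 7 rather than 11 of the 50 pathway genes were called higher, where 5.62% rather than 10.7% of all genes were.

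**Figure D2:**
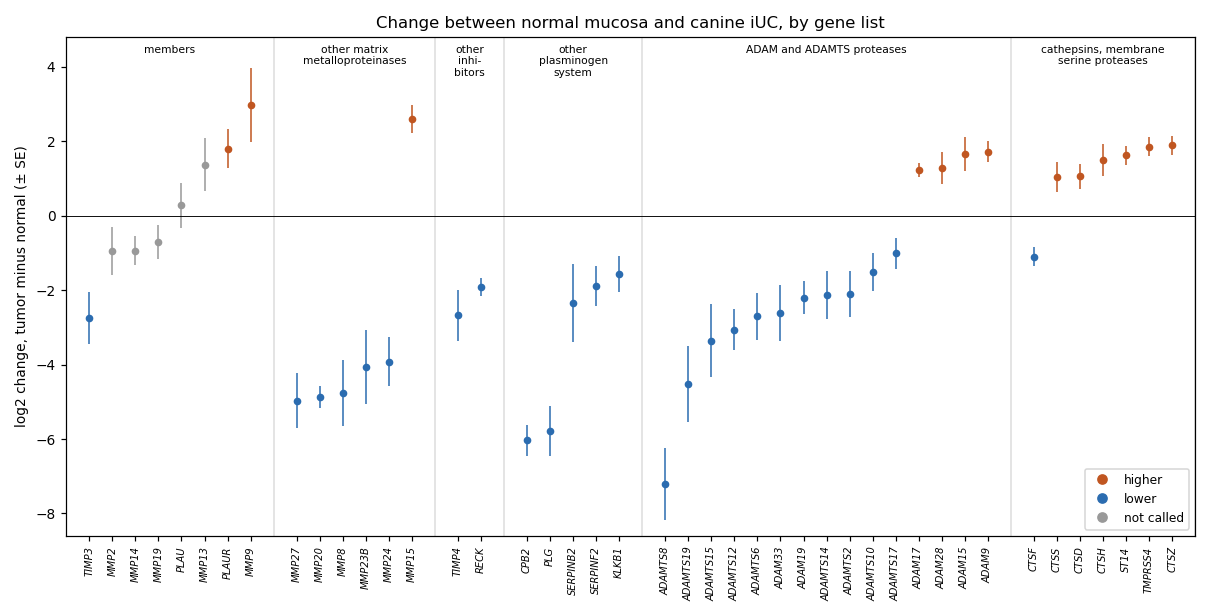
Log2 change, tumor minus normal (vertical axis), of the 8 member genes and of the other pathway genes called higher (11) or lower (24), grouped by list. Points are limma estimates, bars are ± SE, and the color gives the call. Of the 24 lower calls 11 are ADAM and ADAMTS genes, and of the 11 higher calls 6 are cathepsins and membrane serine proteases.

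Co-variation among the tumors was then measured without the normals. Pearson's r was computed between each of the 8 genes and 24088 tested genes that vary among the tumors, with a two-sided permutation p from 100000 resamples, whose smallest value is 1e-05, adjusted over all genes of that member. The 28 pairs of members had a median r of 0.23, and r was positive for 25 and negative for 3. No pair passed an adjusted p of 0.05 from both of its genes. The unadjusted permutation p was under 0.05 for 9 pairs with Pearson's r and for 10 with Spearman's rho, 7 of them by both. Those by rho alone were TIMP3 with MMP13, MMP14 and PLAUR, at 0.41, 0.38 and 0.39 (permutation p = 0.0298, 0.0425 and 0.0367). For TIMP3 and MMP14 r was 0.19 over all tumors. It was 0.57 without tumors Ja and 20, and 0.38 without tumors 2 and 20 (permutation p = 0.0019 and 0.0484). A limma fit with the member as covariate also called 0 pairs.

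The closest pair was MMP13, the collagenase, and PLAU, the activator. Their r over 29 tumors was 0.69 (permutation p = 4e-05, adjusted p = 0.151 over the genes of MMP13 and 0.401 over those of PLAU), and rho was 0.63 (permutation p = 0.00033). Among genes with a symbol, PLAU ranked 5 for likeness to MMP13, and MMP13 ranked 2 for likeness to PLAU. Tumor 7 was highest in both, and tumors 2 and Ab were high in both. Without the 2 tumors farthest from the median of MMP13, 7 and 2, r was 0.55, and without those farthest for PLAU, 7 and 3, it was 0.63.

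PLAUR followed the same genes more loosely. Its r was 0.53 with MMP13 (permutation p = 0.00295, rho 0.46 with permutation p = 0.0131) and 0.45 with PLAU (permutation p = 0.0125, rho 0.44 with permutation p = 0.0170). Tumor 3 went against the pair of activator and receptor, being second in PLAU at 2.13 and lowest in PLAUR at -1.47. Without tumors 12 and 7, the farthest for PLAUR, the r of PLAU and PLAUR was 0.29, and without tumors 7 and 3, the farthest for PLAU, it was 0.52.

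The remaining pairs with an unadjusted p under 0.05 for r included MMP2, MMP19 and MMP14. MMP2 and MMP19 had an r of 0.56 (permutation p = 0.0016, higher of both adjusted p values 0.119, rho 0.43 with permutation p = 0.0218). It was 0.53 without tumors Po and 10 and 0.38 without 8_734_223 and Za, which were high in both genes. MMP2 and MMP14, whose products act in sequence, had an r of 0.48 (permutation p = 0.00886, higher adjusted p 0.300, rho 0.44 with permutation p = 0.0187), and 0.35 without tumors Po and 10. MMP14 was related about as closely to PLAU, with an r of 0.43 (permutation p = 0.0197, rho 0.46 with permutation p = 0.0126), and to MMP13, with 0.41 (permutation p = 0.0261, rho 0.36 with permutation p = 0.0578), as to MMP19, with 0.39 (permutation p = 0.0389, rho 0.34 with permutation p = 0.0693). Without tumors 2 and 20 these were 0.48, 0.50 and 0.33, but the r of MMP13 and MMP14 was 0.25 (permutation p = 0.214) without tumors 7 and 2, the farthest for MMP13.

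Among the members, MMP9 stood apart from the other proteases. Its r with MMP2, MMP13, MMP14, MMP19, PLAU and PLAUR lay between -0.12 and 0.14 over all 29 tumors. With MMP14 it was -0.25 without tumors 1 and 19 (permutation p = 0.210). With MMP19 it was -0.35 without tumors 8_734_223 and Za (permutation p = 0.0690). With the inhibitor TIMP3 it was 0.38 (permutation p = 0.0395, higher adjusted p 0.533, rho 0.41 with permutation p = 0.0272), and 0.31 without tumors 1 and 19. For tested proteases outside the members, r with MMP9 ran from -0.35 for TMPRSS4 to 0.58 for CTSK, with no call.

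**Figure D3:**
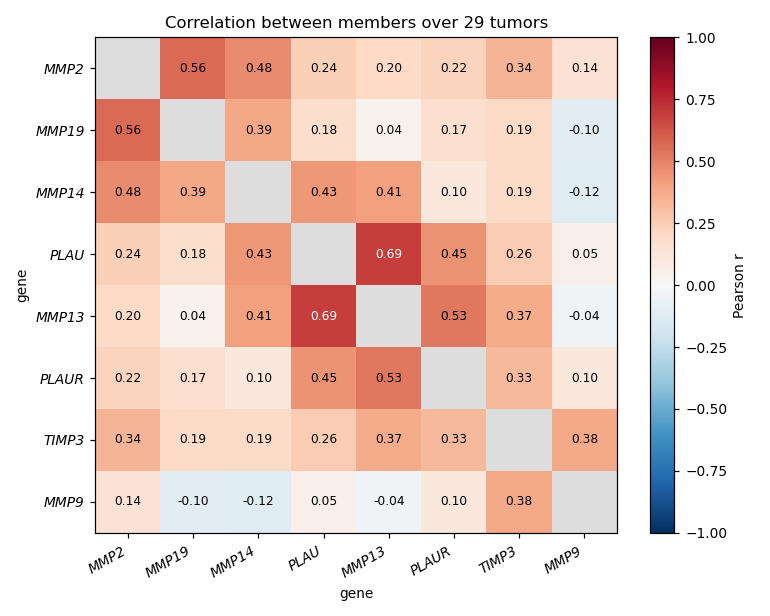
Pearson r over 29 tumors between the 8 genes (both axes), with the value in each cell and red for positive. The highest cell is MMP13 with PLAU at 0.69, and the MMP9 row is near 0 except for TIMP3 at 0.38.

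The genes most alike to each member over the tumors were named by the highest r among 11885 genes with a symbol. For MMP2, MMP14, MMP19, TIMP3, PLAUR and MMP9 each r of these nearest genes over all 29 tumors has a permutation p of 1e-05. MMP2 was matched most closely by PAMR1, a secreted protein with a protease-like domain, with r = 0.93 and rho = 0.85 (adjusted p = 0.00354 for r), then by the laminin chain gene LAMA2 at 0.90 and by PDPN, which encodes podoplanin, at 0.89. Without tumors Po and 10 these were 0.90, 0.86 and 0.84. In all, 0.756% of genes were called positively correlated with MMP2. All 3 were themselves lower in the tumors than in the normals: PAMR1 fell by 1.93, LAMA2 fell by 2.90 and PDPN fell by 2.17 on the log2 scale.

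For MMP14 the nearest gene was FRMD6, which encodes a FERM-domain protein linked to Hippo signaling, with r = 0.93 and rho = 0.89 (adjusted p = 0.0109 for r), and 0.89 without tumors 2 and 20. CYP27C1, a retinoid-metabolizing enzyme, and ST6GALNAC6, a sialyltransferase, followed at 0.79 and 0.78. The share of genes called positive with MMP14 was 0.307%. In the tumors CYP27C1 fell by 1.80 on the log2 scale, and FRMD6 at -0.87 and ST6GALNAC6 at -0.49 were not called.

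MMP19 was most like SLC27A6, a fatty acid transport protein, with r = 0.83 and rho = 0.83 (adjusted p = 0.00446 for r). Next were GPNMB, a glycoprotein of macrophages and other lysosome-rich cells, at 0.82, and AIF1, a macrophage protein also called IBA1, at 0.80. Without tumors 8_734_223 and Za they were 0.80, 0.74 and 0.70. Positive calls made up 0.897% of genes. In the tumors SLC27A6 fell by 3.67 on the log2 scale, and GPNMB at -0.05 and AIF1 at 0.24 were not called.

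TIMP3 varied with OLFML3, a secreted matrix protein, at r = 0.85 and rho = 0.77 (adjusted p = 0.00777 for r), with VEGFC, a growth factor for lymphatic vessels, at 0.82, and with FNDC4 at 0.80. Leaving out tumors Ja and 20 gave 0.79, 0.75 and 0.71. Positive calls made up 0.93% of genes. In the tumors OLFML3 fell by 3.23, VEGFC fell by 1.67 and FNDC4 fell by 2.94 on the log2 scale.

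PLAUR was closest to SPINK5, an inhibitor of epidermal serine proteases, with r = 0.81 and rho = 0.83 (adjusted p = 0.0241 for r), to CD44, the hyaluronan receptor, at 0.78, and to LGR6, a receptor of epithelial stem cells, at 0.77. Without tumors 12 and 7 they were 0.75, 0.72 and 0.74. SPINK5 and LGR6 were at the lowest value in 4 and 9 tumors. Between normals and tumors they went against PLAUR: SPINK5 fell by 5.68 and LGR6 fell by 2.71 on the log2 scale, while CD44 changed by 0.25 and was not called. Only 13 genes were called positive with PLAUR, 0.054%.

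The nearest genes of MMP13 and PLAU did not pass the adjustment, and the share called positive was 0% for each. DSG3, a desmosomal cadherin of stratified epithelium, had r = 0.70 with MMP13 (permutation p = 5e-05, adjusted p = 0.151, rho 0.59 with permutation p = 0.00104). IL27RA, a cytokine receptor chain, also had r = 0.70 with MMP13 (permutation p = 3e-05, adjusted p = 0.151, rho 0.66 with permutation p = 0.00012). Without tumors 7 and 2 these were 0.54 and 0.58. TNS4, a focal adhesion protein, had r = 0.68 with PLAU (permutation p = 1e-04, adjusted p = 0.602, rho 0.71 with permutation p = 5e-05), and 0.68 without tumors 7 and 3. The differences of DSG3, IL27RA and TNS4 between tumors and normals, 0.04, 0.90 and 0.62 on the log2 scale, were not called.

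MMP9 had ANPEP, the aminopeptidase also known as CD13, as its nearest gene, with r = 0.81 and rho = 0.87 (adjusted p = 0.0602 for r and 0.0301 for rho). OCSTAMP, which acts in the fusion of macrophage-lineage cells into osteoclasts, followed with r = 0.81 and rho = 0.82, and SH3GL3 with r = 0.77 and rho = 0.79. Without tumors 1 and 19 the r values were 0.80, 0.81 and 0.73. OCSTAMP was at the lowest value in 11 tumors. While MMP9 was higher in the tumors than in the normals, ANPEP fell by 1.30 and SH3GL3 fell by 3.15 on the log2 scale, and OCSTAMP, at -0.34, was not called. With r the share of genes called positive was 0%.

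**Figure D4:**
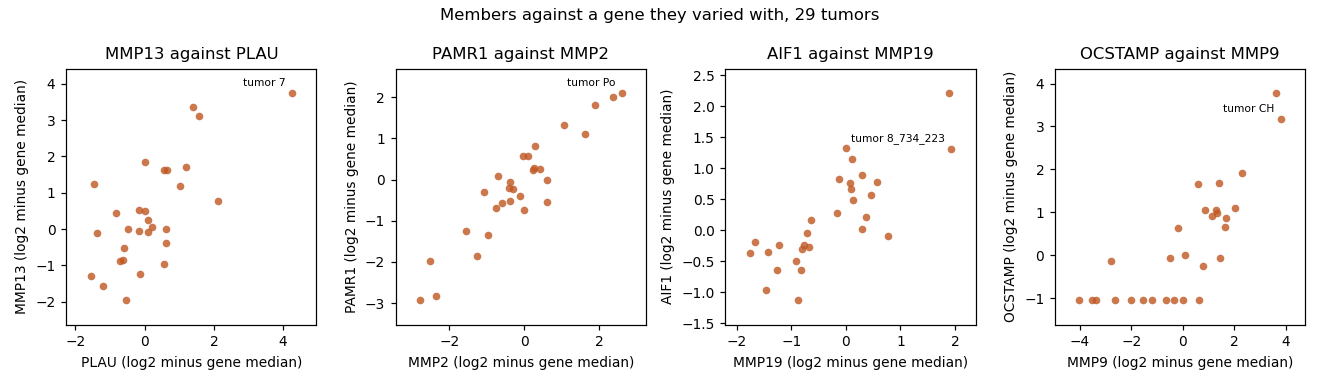
Log2 values minus the gene median in 29 tumors, for MMP13 against PLAU, PAMR1 against MMP2, AIF1 against MMP19 and OCSTAMP against MMP9, with the member on the horizontal axis and each point a tumor. The tumor highest on the horizontal axis is named. PAMR1 followed MMP2 over the whole range, tumor 7 sits alone at the top right of the PLAU panel, and the flat row of OCSTAMP points is 11 tumors at the lowest value.

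Relations to cell type markers differed between the members, and an r given for a marker without a p is a description. MMP2 had a median r of 0.65 with 9 fibroblast markers, and 7 of the 9 were called positive, among them LUM at 0.88 and DCN at 0.78, which encode small proteoglycans of the collagen matrix, and COL1A2 at 0.75. Without tumors Po and 10 the median was 0.56 with 3 called, where 0.321% of all genes were called, and with Spearman's rho 2 were called, where 0.324% were. The median r of MMP2 over all genes was -0.0052.

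MMP19 had a median r of 0.74 with 9 macrophage markers, 7 of which were called, led by AIF1 at 0.80, TYROBP, a signaling adaptor of myeloid cells, at 0.79, and MSR1, a scavenger receptor, at 0.77. MRC1 was the lowest at 0.29 (permutation p = 0.123). With rho 7 were again called, against 0.502% of all genes, but without tumors 8_734_223 and Za the median was 0.60 and 0 genes of the whole table, 0%, were called. The unadjusted permutation p of every one of those called markers was at most 3e-05 with all tumors. Outside the macrophage list, the fibroblast marker LUM at 0.66 and the T cell marker CD2 at 0.60 were also called with r. Their adjusted permutation p was 0.0125 and 0.0484, and with rho neither was called.

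TIMP3 was spread over stromal lists. Its median r was 0.54 with 9 fibroblast markers (3 called), 0.54 with 7 endothelial markers (2 called) and 0.48 with 5 smooth muscle markers (1 called). THY1, a fibroblast surface protein, and TEK, the endothelial angiopoietin receptor, were at 0.71 and 0.72. Without tumors Ja and 20 the medians were 0.68, 0.64 and 0.57, with 6, 4 and 3 called, where 2.15% of all genes were called. With rho 6 fibroblast, 4 endothelial and 4 smooth muscle markers were called, where 2.08% of all genes were.

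For MMP13 and PLAU the highest list was that of 6 basal and squamous keratinocyte markers, with median r of 0.62 and 0.55, and 0.50 and 0.54 without the 2 tumors farthest for each gene. For PLAUR that list, at 0.45, and the 5 neutrophil markers, at 0.44, were level, and without tumors 12 and 7 they were at 0.42 and 0.56. None of the 5 neutrophil markers was called, and MPO went the other way, with r of -0.18 and, without those tumors, -0.20. CD44 with PLAUR was the 1 call among the relations of these 3 genes to the 6 markers. KRT14, a keratin of basal cells, had r of 0.58, 0.57 and 0.51 with the 3 genes, and CDH3, which encodes P-cadherin, had 0.69, 0.54 and 0.38. Not all of the list went this way: DSC3, a desmosomal cadherin, had 0.37, 0.28 and 0.39, and PI3, a secreted protease inhibitor, had -0.04, -0.05 and 0.21. The 8 urothelial markers had medians of -0.11, -0.06 and -0.07. MMP9 had no list with a median above 0.37, the value for smooth muscle, and its median with macrophage markers was -0.04. MMP14 had medians of 0.48 with 7 endothelial and 0.39 with 9 fibroblast markers and of -0.44 with 5 cycling markers, with no call, and these were 0.61, 0.59 and -0.28 without tumors 2 and 20.

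**Figure D5:**
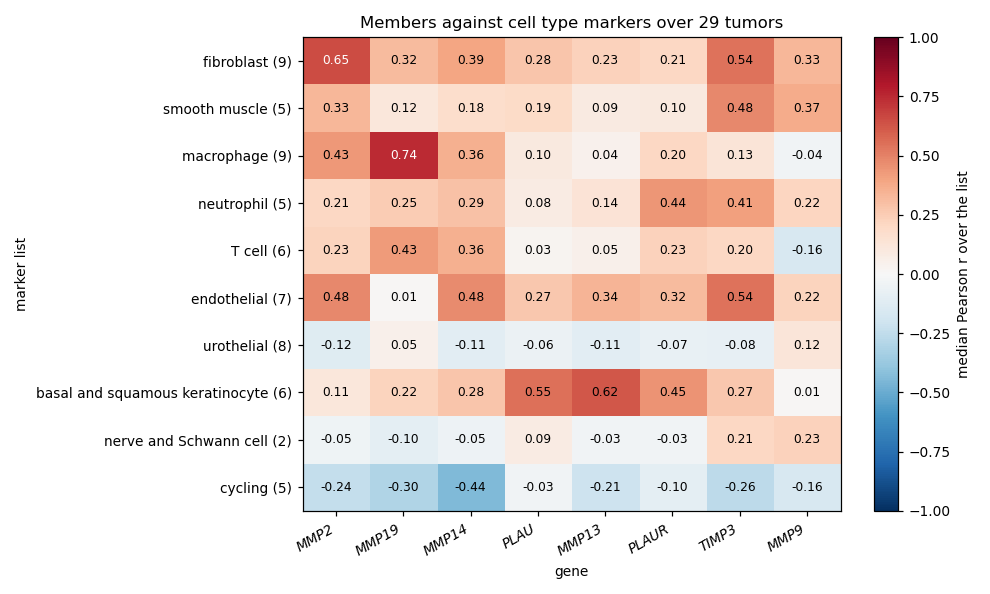
Median Pearson r over 29 tumors between each of the 8 genes (horizontal axis) and each cell type marker list (vertical axis, with the number of markers tested). The strongest cells are MMP19 with macrophage markers at 0.74, MMP2 with fibroblast markers at 0.65 and MMP13 with basal and squamous keratinocyte markers at 0.62.

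Single tumors combined the members in different ways. Tumor 10 was among the 3 lowest tumors for 6 of the 8 genes (MMP2, MMP13, MMP14, TIMP3, PLAU and PLAUR), yet its MMP9 value was 2.03. Tumor 20 was among the 3 lowest for MMP9, MMP13, TIMP3 and PLAUR and second highest for MMP14, at 1.38. Tumors 7 and Po lay above the tumor median in all 8 genes, and tumors 2_699898 and Mis in 0. Tumor 7 was among the 3 highest for MMP13, PLAU and PLAUR, and tumor Za for MMP2, MMP9 and MMP19. The counts of genes at the lowest value were 6461 for tumor 10, 7077 for tumor 20, 6827 for tumor 7 and 5945 for tumor Za. These lay inside the range of the other tumors. Tumor Po had 4189, near the low end of the tumor range of 3699 to 8175, whose median was 6876. Over genes whose median lay above the lowest value, tumor Po also had the highest sample median of the tumors, 0.0325.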

How the data were processed

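Ribosomal RNA was removed, and the authors made paired-end reads of 150 bases, aligned them to CanFam3.1 with COBWeb and quantified annotated genes in Strand NGS 3.1. They deposited 1 table normalized by TMM and 1 by DESeq, each holding log2 values minus the gene's median over 33 samples. The last line of each analysed copy is incomplete and was dropped. The labels give an average of 50000000 reads per sample. Counts of single samples cannot be read from the tables, which keeps count models from being used, and the values were used as deposited.

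Genes above their shared lowest value in at least 4 samples were tested. The 29 tumors and 4 normals, grouped by title, were compared with limma 3.58.1 (R 4.3.3, trend), with an adjusted p of at most 0.05 and at least 2-fold. Pearson's r over the tumors had 100000 resamples; PLAU minus PLAUR had an exact permutation test. The authors report 1 tumor per dog, and normal samples from dogs euthanized for reasons unrelated to the bladder. Neither they nor the labels say that each normal came from a separate animal. The p-values therefore measure the spread between these samples, which may in part be technical. Scripts were tested on simulated data. Python 3.11.15, numpy 2.4.6, pandas 2.3.3, scipy 1.17.1 and matplotlib 3.10.9 were used.

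Named are the members; in each pathway list up to 2 genes each way with the largest called change; for each member the 3 genes with a symbol and the highest r; and markers that a result turns on. Members and lists were chosen with earlier results of these data known. Alternatives were the second deposited table, no trend, a weight per group, other filters, centred samples, no fold threshold, each normal left out, Spearman's rho, 2 tumors left out and medians. Added after seeing the data were genes with a median above the lowest value, and limma with the member as covariate. MMP2 minus TIMP2 and MMP14 minus TIMP2 were planned and not run, because TIMP2 was not analysed here. Some results that the rule would name are not reported here.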

Additional observations from a re-analysis of the deposited data

How the results depend on the processing

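Most results kept their side of the threshold. Of the counts and the PLAU minus PLAUR difference recomputed under the alternatives, 60 values kept their call or stayed within 1.5 times, 3 counts moved further and 1 difference lost its call. The DESeq-normalized table called 2 members lower (TIMP3 and MMP14) and 7 pathway genes higher, where 49.1% of all genes were lower and 5.62% higher, and without a fold threshold 2 members were lower, where 48.1% of all genes were. The PLAU change turned from 0.28 to -0.0197 in the DESeq-normalized table, and the cause was not tested beyond the shift of -0.30 over all genes. With each normal left out in turn, PLAU minus PLAUR differed by -1.65 to -1.44, with exact p from 0.0274 to 0.0522, and the call was lost without normal A; with 3 normals fewer splits exist. MMP9, PLAUR and TIMP3 passed both thresholds in every fit run. MMP9 ranged from 2.68 (DESeq-normalized table) to 3.18 (without normal B), with adjusted p of at most 0.0285. No member pair passed the adjusted threshold under any alternative run. No paired analysis was possible because normals and tumors share no replicate numbers. With 4 normals, whose spread was small beside that of the tumors, the group difference rests on few samples.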

Other observations

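Genes known from osteoclasts, the multinucleated bone-resorbing cells of the macrophage lineage that use MMP9, were looked up after ANPEP and OCSTAMP had been seen among its nearest genes, so their choice followed the values and they carry no test. ACP5, the tartrate-resistant acid phosphatase, had r = 0.73 with MMP9 over the 29 tumors and rho = 0.77, and r = 0.79 without tumors 1 and 19. CTSK, the collagen-cutting cathepsin of osteoclasts, had r = 0.58, OSCAR 0.49, DCSTAMP 0.48 and NFATC1 0.43. TNFRSF11A, CLCN7 and TCIRG1 lay between 0.10 and 0.17, and SIGLEC15 was at -0.14. OSCAR was at the lowest value in 17 tumors. Of 9 general macrophage markers the median r with MMP9 was -0.04 and the range -0.26 to 0.43, the highest being CD68 (permutation p = 0.0205, rho 0.53, and r = 0.50 without tumors 1 and 19).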
